A study of Arabidopsis thaliana with 2 samples.

Results

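The Argonautes AGO1 to AGO9 and the Dicer gene DCL1 were followed in the globular embryo of Arabidopsis thaliana, in the embryo proper (EP), the apical sphere that becomes the seedling, and in the suspensor, the stalk that ties it to the maternal tissue. The 10 genes were chosen by locus identifier, and they are 10 of 20029 genes listed in either tissue. Both tissues came from plants of the genotype Ws-0, a natural accession, that were 38 to 46 days old and grown at 20 °C in continuous light, and no mutant, transgene or treatment was named for either. Laser microdissection took each tissue from sections 5 or 7 μm thick, of seeds with an embryo proper of 24 to 32 μm diameter, and gave 1 library per tissue. How many seeds a library holds is not stated in the sources used here. The comparison asks how the transcripts of these genes are distributed between the parts of the embryo. Without replicates no test was run, and each value describes these libraries.

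Argonaute proteins hold a small RNA and use it to find matching transcripts or chromatin, and Dicer proteins cut the double-stranded precursors from which those small RNAs come. In plants DCL1 makes most microRNAs and AGO1 is their main effector. The relatives of AGO4 load the siRNAs that guide DNA methylation to transposons and repeats. AGO7 takes a microRNA that starts the production of trans-acting siRNAs against auxin response factors. In Arabidopsis, embryos without DCL1 fail early, with defects in both the EP and the suspensor.

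The microRNA pathway acts on several of its own components, which is why the sequences below are shown: transcripts of AGO1, AGO2 and DCL1 are known targets of miR168, miR403 and miR162. The mature microRNAs and the sites were read 5′ to 3′ from the RefSeq annotation of TAIR10.1. Capitals mark the seed, bases 2 to 8, in a microRNA and the bases facing the seed in a site.
miR168a-5p: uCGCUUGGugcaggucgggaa
AGO1 site: uucccgagcugcaUCAAGCUa
miR403-3p: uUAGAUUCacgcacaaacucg
AGO2 site: ggaguuugugcguGAAUCUAa
AGO3 site: gauguuugugcguGAAUCUAa
miR162a-3p: uCGAUAAAccucugcauccag
DCL1 site: cuggaugcagaggUAUUAUCGa

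The AGO1 site lies in coding sequence and pairs 18 bases of the microRNA, with 1 G:U wobble and 2 mismatches. The AGO2 site lies in the 3′ UTR and pairs 20 bases, and the matching place in the 3′ UTR of AGO3 pairs 18. The DCL1 site lies in coding sequence across an exon junction, pairs all 21 bases and has 1 unpaired base in the transcript, inside the capitals. Among 31464 loci with an annotated mRNA, pseudogenes included, the sites of AGO1, AGO2 and DCL1 were each the best match to their microRNA, a share of 0.00318%. With AGO3 included, 2 loci, or 0.00636%, matched miR403 at least as well as the AGO3 site. The complementarity was scored on the sense strand, and the small RNAs themselves were not measured.

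From EP, 12715740 gene-assigned reads were obtained and from suspensor 7189340, both totals recovered from the deposited RPKM, a level that divides reads by gene length in kilobases and by the library total in units of 1000000. All 5 EP markers exceeded the suspensor value by 2-fold or more, and all 6 suspensor markers exceeded the EP value by as much. The marker lists, those below included, were chosen with earlier results of these data known. Their directions are therefore no independent check of the labels. Markers of the tissues around the embryo were mostly in the suspensor library. The 10 endosperm markers summed to 386 RPKM there against 25.5 RPKM in the EP, and 9 of the 9 with at least 1 RPKM passed 2-fold. The 12 seed coat markers summed to 118 against 6.81 RPKM, with 8 of 10 passing 2-fold. MYB5 went the other way without being called, at 0.927 RPKM in the suspensor and 2.20 RPKM in the EP. BAN, TT2, TT8, TT10 and TT16 were not listed in the EP, and TT16 was not listed in the suspensor. The part of these tissues in the values below was not tested. In such bulk samples fewer cells of a type and less RNA per cell cannot be told apart.

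The Argonautes and DCL1 divided into genes that the EP and the suspensor held at similar levels, AGO1, AGO4, AGO6 and DCL1, genes that were far higher in the EP, AGO9, AGO5 and AGO2, and AGO7, which was higher in the suspensor. AGO3 and AGO8 were under 1 RPKM in both. A gene was compared where at least 1 library reached 1 RPKM, which 8 of the 10 did, and it was called at 2-fold on the scale of log2(RPKM + 1). By that rule 3 of the 8 were called toward the EP, as were 23.1% of all 16975 genes compared, and 1 toward the suspensor, as were 29.3%. At 4-fold the counts were 3, against 8.32% of all genes, and 0, against 12.3%. The median log2 ratio of suspensor to EP was −0.33 for the 8 genes and 0.13 for all genes compared. Each fold is followed by its 95% exact binomial interval, computed on recovered reads. Such intervals, and those of levels, cover counting error only, because amplified reads without molecular identifiers need not stem from separate molecules.

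**Figure D1:**
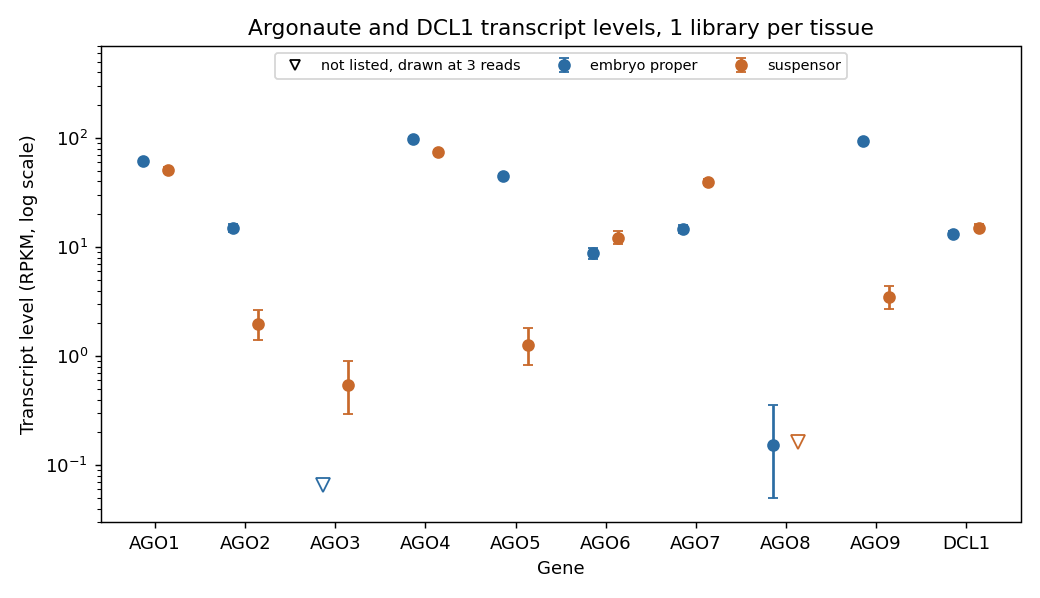
Transcript level in RPKM on a log axis for each gene in the EP (blue) and suspensor (orange) library; points are the deposited values, bars are 95% exact Poisson intervals of the recovered reads, and open triangles stand at 3 reads for a gene that was not listed. In the suspensor AGO2, AGO5 and AGO9 stand between 1.25 and 3.46 RPKM, whereas AGO1, AGO4, AGO6 and DCL1 are within 2-fold of their EP level and AGO7 is higher in the suspensor.

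DCL1 (AT1G01040), the enzyme that cuts microRNA precursors, stood at 13.3 RPKM in the EP and 15.1 RPKM in the suspensor, on 968 and 623 reads. The suspensor value was 1.14-fold higher (1.03 to 1.26), which is far from the 2-fold threshold. In level it lay in the middle of each library, above 58.5% of the genes listed in the EP and 59.5% of those listed in the suspensor. DCL1 overlaps 3 other annotated genes, a long non-coding RNA and a protein-coding gene on the opposite strand and MIR838 on its own strand. Whether the counting used strand is not stated, so reads of the overlaps cannot be told apart.

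AGO1 (AT1G48410), the main effector of microRNAs, was abundant in both tissues, at 61.1 RPKM in the EP and 50.9 RPKM in the suspensor. The EP was 1.20-fold higher (1.12 to 1.29), on 2450 and 1154 reads. AGO1 thus lay above 86.2% of listed genes in the EP and 83.5% in the suspensor.

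AGO5 (AT2G27880), a relative of AGO1 known from reproductive tissue, where it acts in the formation of the female gametophyte, had a different distribution. It stood at 45.2 RPKM in the EP and 1.25 RPKM in the suspensor, on 1719 and 27 reads, 36.0-fold higher in the EP (24.7 to 54.8). Of all genes compared, 0.789% had a lower ratio of suspensor to EP. The level of AGO1 per length was 1.35 times that of AGO5 in the EP (1.27 to 1.44) and 40.6 times in the suspensor (27.7 to 61.9), and a ratio within a library does not depend on how the libraries are scaled. AGO10 (AT5G43810), the third gene of this clade, which sequesters miR165 and miR166 from AGO1, was also an EP transcript, at 124 against 7.31 RPKM. The coding sequence of AGO1 was 68.8% identical to that of AGO10 and 64.4% to that of AGO5.

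AGO2 (AT1G31280), which acts in antiviral defence, stood at 15.1 RPKM in the EP and 1.96 RPKM in the suspensor, 7.67-fold higher in the EP (5.62 to 10.7). The suspensor value rested on 43 reads. AGO3 (AT1G31290) is its direct neighbour on chromosome 1, with 0 protein-coding genes between them, and 82.2% of aligned coding bases are identical. AGO3 was not listed in the EP and stood at 0.543 RPKM in the suspensor on 14 reads, with a counting interval of 0.297 to 0.911 RPKM. The suspensor value was 8.25 times a floor of 3 reads in the EP, a figure that leaves out counting error. By these values the adjacent pair had opposite directions, but AGO3 did not reach the 1 RPKM needed for a comparison. AGO3 lay above only 10.8% of the genes listed in the suspensor. The 2 coding sequences share 0 runs of 50 bases, but how reads with several matches were counted is not stated, so the low value of AGO3 is uncertain.

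AGO7 (AT1G69440), the partner of miR390 in the trans-acting siRNA pathway, was the Argonaute with the highest ratio toward the suspensor among those compared. It stood at 39.7 RPKM in the suspensor and 14.8 RPKM in the EP, 2.68-fold higher in the suspensor (2.40 to 2.99), on 848 and 560 reads. A ratio of this size was common, since no more than 78.8% of all genes compared had a lower one. AGO7 and AGO2 belong to the same clade and were level in the EP, with AGO7 at 0.984 times AGO2 per length (0.875 to 1.11), while in the suspensor AGO7 was at 20.2 times AGO2 (14.9 to 28.1). The endosperm markers, with a median log2 ratio of 2.62, and the seed coat markers, with 2.22, were higher in the same library as AGO7, and their part in its value was not tested.

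AGO4 (AT2G27040), an effector of RNA-directed DNA methylation, was the most abundant of the 10 genes in each library. It stood at 98.3 RPKM in the EP and 74.6 RPKM in the suspensor, 1.32-fold higher in the EP (1.24 to 1.40), on 3470 and 1489 reads. AGO6 (AT2G32940), which acts beside AGO4 in meristems, was lower in both, at 8.83 RPKM in the EP and 12.2 RPKM in the suspensor, 1.39-fold higher in the suspensor (1.16 to 1.65). Neither passed the 2-fold threshold.

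AGO9 (AT5G21150), an Argonaute known from the ovule, where it silences transposons and limits the number of female germline precursors, stood at 94.4 RPKM in the EP and 3.46 RPKM in the suspensor. It was 27.2-fold higher in the EP (21.4 to 35.2), on 3229 and 67 reads, and 0.725% of all genes compared had a lower ratio of suspensor to EP. In the EP AGO9 matched AGO4, whose level per length was 1.04 times as high (0.993 to 1.09). In the suspensor AGO4 was 21.6 times as high as AGO9 (16.9 to 28.0). The coding sequences of AGO4 and AGO9 were 69.0% identical. AGO8 (AT5G21030), the nearest relative of AGO9 in coding sequence at 78.3% identity and 12 protein-coding genes away on chromosome 5, was at 0.154 RPKM in the EP on 5 reads and was not listed in the suspensor. The suspensor floor of 3 reads is 0.163 RPKM for this gene, so a difference was not detectable at this depth. The reference gives that locus no symbol.

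**Figure D2:**
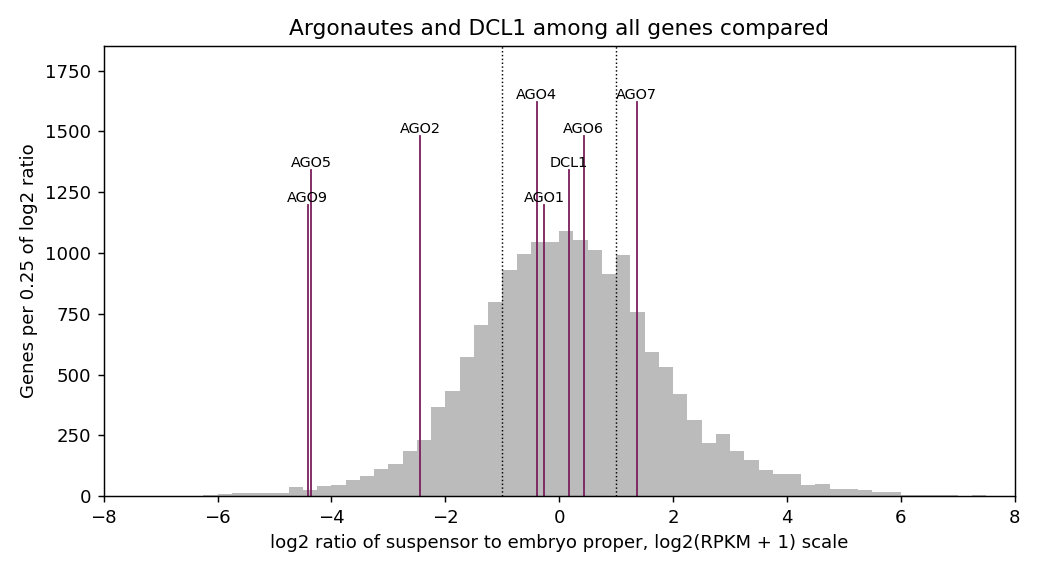
Number of genes in steps of 0.25 of the log2 ratio of suspensor to EP, on the log2(RPKM + 1) scale, for the 16975 genes compared (grey), with lines at the ratios of the 8 Argonaute and DCL1 genes compared and dotted lines at 2-fold. AGO9 at −4.42 and AGO5 at −4.36 lie in the low tail, AGO2 at −2.44 lies nearer to the centre, and AGO7 at 1.36 is beyond the upper dotted line.

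The order of levels differed between the tissues. In the EP it ran AGO4, AGO9, AGO1, AGO5, AGO2, AGO7, DCL1, AGO6 and AGO8, and the counting intervals overlapped between AGO4 and AGO9, between AGO2 and AGO7 and between AGO7 and DCL1. In the suspensor it ran AGO4, AGO1, AGO7, DCL1, AGO6, AGO9, AGO2, AGO5 and AGO3, and the intervals overlapped between AGO2 and AGO5 and between AGO5 and AGO3. Other neighbours in these orders differed beyond counting error, and the spread between replicates is unknown.

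The summed level of the 9 Argonautes was 338 RPKM in the EP and 185 RPKM in the suspensor. AGO10, which at 124 RPKM stood above each of the 9 in the EP, is left out of this sum and the gene shares. With AGO10, added after seeing the data, the sum was 462 RPKM in the EP and 192 RPKM in the suspensor. Of the sum without AGO10, AGO5 and AGO9 together made up 41.3% in the EP and 2.55% in the suspensor. The sum of the other 7 was 198 RPKM and 180 RPKM. By reads, AGO9 held 26.2% of the reads of these 9 genes in the EP (exact Clopper-Pearson 95% interval 25.5 to 27.0) and 1.73% in the suspensor (1.34 to 2.19). AGO7 went from 4.55% (4.19 to 4.93) to 21.9% (20.6 to 23.2). By clade, AGO4, AGO6, AGO8 and AGO9 made up 59.7% of the summed RPKM in the EP and 48.9% in the suspensor, AGO1 and AGO5 31.5% and 28.2%, and AGO2, AGO3 and AGO7 8.84% and 22.8%. With AGO10 counted in the AGO1 clade, a choice made after seeing the data, the AGO4 clade made up 43.7% and 47.1%, so its direction depends on AGO10, the AGO1 clade 49.9% and 31.0%, and the AGO2 clade 6.47% and 22.0%.

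**Figure D3:**
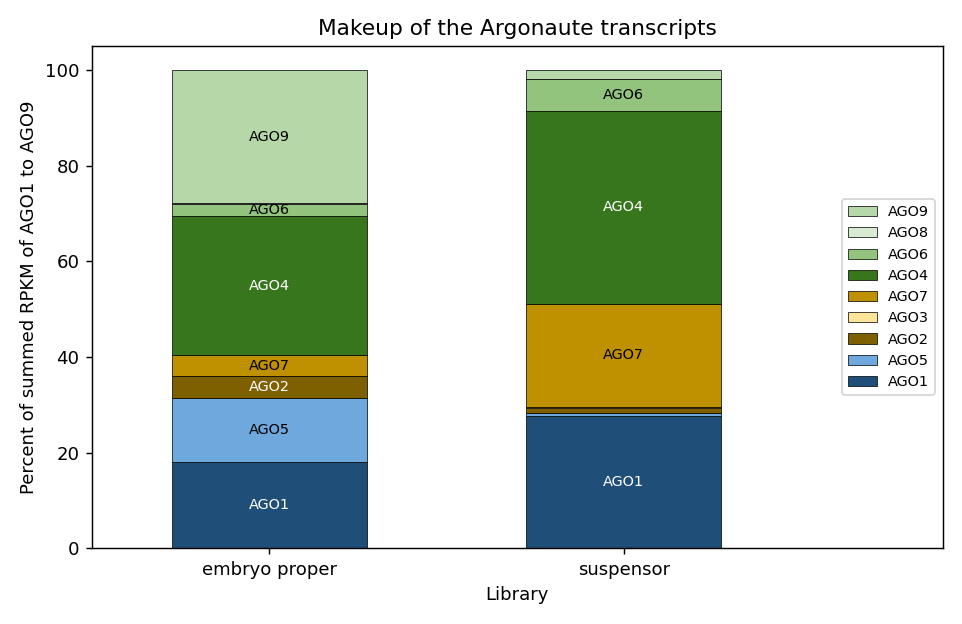
Stacked bars of each Argonaute gene as a percent of the summed RPKM of AGO1 to AGO9 in each library, coloured by clade (blue, AGO1 and AGO5; yellow to brown, AGO2, AGO3 and AGO7; green, AGO4, AGO6, AGO8 and AGO9). AGO9 and AGO5 take 27.9% and 13.4% of the EP bar and 1.88% and 0.679% of the suspensor bar, where AGO4, AGO1 and AGO7 take 40.4%, 27.6% and 21.5%.

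The other genes of small RNA production and use were read from 6 lists of 51 genes, all of which passed the filter of 1 RPKM. In all, 5 were called toward the EP, 10 toward the suspensor and 36 were within 2-fold. The median log2 ratio was 0.14 beside 0.13 for all genes compared. Those counts are to be read against 23.1% and 29.3% of all genes.

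Of the 8 Dicers and their RNA-binding partners, 2 were called toward the EP, beside 23.1% of all genes. Toward the suspensor 1 was called, beside 29.3%, and 5 were within 2-fold. Their median log2 ratio was −0.01. DRB3 (AT3G26932), a double-stranded RNA-binding protein, stood at 47.7 RPKM in the EP and 0.515 RPKM in the suspensor, a value that 4 reads gave. DRB2 (AT2G28380), its relative, was the most abundant of this list in the EP, at 170 against 22.6 RPKM. DCL3 (AT3G43920), the Dicer of RNA-directed DNA methylation, had the opposite direction, with 2.45 RPKM in the EP and 10.6 RPKM in the suspensor, 4.31-fold higher in the suspensor (3.55 to 5.26). DCL4 (AT5G20320), the Dicer of trans-acting siRNAs, was at 3.79 and 3.62 RPKM, and HYL1 (AT1G09700), the direct partner of DCL1, was at 56.5 and 62.2 RPKM. DCL1 and HYL1 were thus both within 2-fold.

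The genes of microRNA processing and export had 1 of 11 members called toward the EP, beside 23.1% of all genes. Toward the suspensor 0 were called, beside 29.3%, and their median log2 ratio was −0.41. The gene called was PRL1 (AT4G15900), a WD-40 protein that acts with the splicing factor CDC5, at 117 against 28.1 RPKM. CBP20 (AT5G44200) stood at 302 against 150 RPKM, 2.01-fold higher in the EP (1.86 to 2.17). Its log2 ratio of −0.999 with the pseudocount fell just short of the call. MOS2 (AT1G33520), an RNA-binding protein needed for microRNA maturation, was the most abundant in each library, at 381 and 250.4 RPKM. The methyltransferase gene HEN1 (AT4G20910), whose product protects the ends of small RNAs, stood at 12.9 and 16.6 RPKM.

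Among 6 genes of Argonaute loading and AGO1 control, 1 was called toward each library, beside 23.1% of all genes for the EP and 29.3% for the suspensor. Both were chaperone genes. HSP90.2 (AT5G56030) stood at 319 RPKM in the EP and 91.1 RPKM in the suspensor, and the heat-inducible HSP90.1 (AT5G52640) at 25.2 and 57.2 RPKM. HSP90.2 has near-identical neighbours, so its value is uncertain. SQN (AT2G15790), the cyclophilin that helps AGO1 load, stood at 60.1 and 42.5 RPKM, and FBW2 (AT4G08980), the F-box protein that targets AGO1 for removal, at 91.6 and 78.0 RPKM. The median log2 ratio of this list was −0.67.

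Of 5 genes of small RNA turnover, 1 was called toward the EP, beside 23.1% of all genes, and 0 toward the suspensor, beside 29.3%. Their median log2 ratio was −0.88. SDN3 (AT5G67240), an exonuclease that degrades microRNAs, stood at 46.7 RPKM in the EP and 13.1 RPKM in the suspensor. URT1 (AT2G45620), a uridylyltransferase, was the most abundant in each, at 53.7 and 82.1 RPKM.

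**Figure D4:**
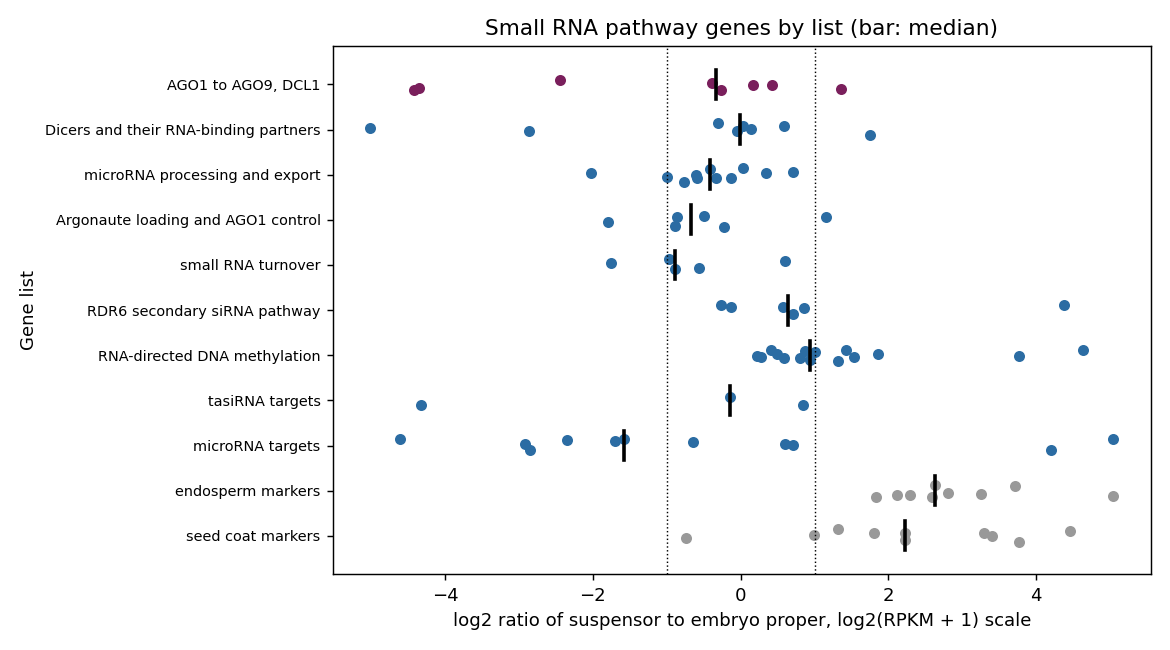
Log2 ratio of suspensor to EP, on the log2(RPKM + 1) scale, for each gene that passed the filter of 1 RPKM, by list; black bars are medians, dotted lines mark 2-fold and vertical scatter within a row has no meaning. The DNA methylation list lies to the right of 0 with a median of 0.94, the list of turnover genes has a median of −0.88, and the endosperm and seed coat markers (grey) have medians of 2.62 and 2.22.

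The list of the RDR6 pathway of secondary siRNAs, which AGO7 feeds, and of RDR1 had 1 of 6 members called toward the suspensor. Toward the EP 0 were called, and the shares of all genes were 29.3% and 23.1% in that order. The median log2 ratio of the list was 0.64. RDR1 (AT1G14790), an RNA-dependent RNA polymerase of antiviral defence, stood at 57.8 RPKM in the suspensor and 1.85 RPKM in the EP, 31.3-fold higher in the suspensor (24.9 to 39.9). RDR6 (AT3G49500) itself was at 7.01 and 7.80 RPKM in the same order, and its partner SGS3 (AT5G23570), the most abundant of the list, was at 166.8 and 102 RPKM.

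Among the partners of AGO4, AGO6 and AGO9 in RNA-directed DNA methylation, 7 of 15 genes were called toward the suspensor, beside 29.3% of all genes, 0 toward the EP, beside 23.1%, and 8 were within 2-fold. The median log2 ratio was 0.94, and at 4-fold 2 of the 15 passed toward the suspensor, beside 12.3% of all genes. Of the genes called, DRD1 passed narrowly, at a log2 ratio of 1.001. Left out of the list were CLSY2, CLSY3 and CLSY4, whose symbols were not in the reference. CLSY1 (AT3G42670), a chromatin remodeller that recruits RNA polymerase IV, stood at 259 RPKM in the suspensor and 9.47 RPKM in the EP, 27.3-fold higher (24.8 to 30.1). NRPD1 (AT1G63020), the largest subunit of that polymerase, was at 30.2 and 1.30 RPKM, 23.3-fold higher (18.3 to 29.99). IDN2 (AT3G48670), an RNA-binding protein of the pathway, was the most abundant in each library, at 985 RPKM in the suspensor and 270.0 RPKM in the EP, and SUVH9 (AT4G13460), a reader of DNA methylation, was at 20.3 and 6.36 RPKM. Of the Argonautes that act with these genes, AGO6 had a log2 ratio of 0.43, AGO4 of −0.39 and AGO9 of −4.42. Markers of the endosperm and seed coat shared the direction of this list, with medians of 2.62 and 2.22, and their part in the values of this list was not tested.

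Transcripts that the Argonautes act on were also uneven. Of 3 auxin response factor genes cut by the trans-acting siRNAs of the AGO7 pathway, ARF3 (AT2G33860) stood at 77.3 RPKM in the EP and 2.89 RPKM in the suspensor, 26.7-fold higher in the EP (19.4 to 37.9). The others were within 2-fold, ARF4 (AT5G60450) at 21.5 and 19.3 RPKM and ARF2 (AT5G62000) at 69.7 and 126 RPKM. Of 12 known microRNA targets, 11 reached 1 RPKM, 6 of these were called toward the EP and 2 toward the suspensor, beside 23.1% and 29.3% of all genes, at a median log2 ratio of −1.58. The pair called toward the suspensor were targets of miR160, ARF16 (AT4G30080) at 43.3 RPKM there and 0.352 RPKM in the EP, and ARF10 (AT2G28350) at 44.4 and 1.47 RPKM. ARF17 (AT1G77850), also a target of miR160, was within 2-fold, at 4.51 RPKM in the suspensor and 2.64 RPKM in the EP. PHB (AT2G34710), a target of miR166, was at 183 RPKM in the EP and 6.58 RPKM in the suspensor, and CUC1 (AT3G15170), a target of miR164, was at 6.58 RPKM in the EP and not listed in the suspensor.

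Within the small RNA lists, the genes nearest to each Argonaute in log2(RPKM + 1) over the 2 libraries were found by Euclidean distance among 65 genes. AGO4 was nearest to DDL (AT3G20550), at a distance of 0.05, and AGO1 to SQN, at 0.26. DCL1 was nearest to HEN1, at 0.14, and AGO6 to TEX1 (AT5G56130), at 0.17. For AGO7 the nearest was DRD1 (AT2G16390), at 0.27, for AGO9 it was ARF3, at 0.35, and for AGO5 it was DRB3, at 0.58. AGO2 was nearest to AP2 (AT4G36920), also at 0.58. With 2 libraries such nearness compares a pair of levels and nothing more.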

How the data were processed

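Values are RPKM as deposited by the authors, per the file headers, to 3 decimals and for genes above 0 only; an unlisted gene was taken as 0. HISAT2 2.0.6, HTSeq 0.6.1 and TAIR10 are named, without roles, per the submitters' processing notes. Per the labels' protocols, 15 ng of total RNA was amplified, and 15 PCR cycles enriched each library.

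Reads were recovered as the total at which RPKM times the longest coding length (RefSeq, TAIR10.1) gives whole numbers. Of values from 0.2 RPKM up to 15 reads, 91.9% and 92.1% (embryo proper, suspensor) were within 0.05 of a whole read, where chance gives 10%. The search picks a total that makes this share high, so the share is no independent check. The search and the ratios were tested on simulated data made with the same coding lengths, so the lengths themselves were not tested. Files carry no positions and the assemblies differ in name, so no coordinates are given.

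Log2 ratios used log2(RPKM + 1), which shrinks the ratios of low genes. MicroRNA sites were scored with 1 per mismatch and 0.5 per wobble, doubled facing bases 2 to 13, and 2 for 1 unpaired transcript base. Identity came from global alignment (Biopython 1.88). The members and lists were chosen with earlier results of these data known. Left out were 6 list genes whose symbol was not in the reference: CLSY2, CLSY3, CLSY4, HSP90.3, HSP90.4 and HOS5. Named were all members, AGO10, and of each list the genes called (at most 4), the most abundant, and genes nearest to a member. DCL4, RDR6, ARF4 and ARF17 were named for their role after their values were seen, and CBP20 for its ratio near the threshold. Alternatives are in the closing section.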

Additional observations from a re-analysis of the deposited data

How the results depend on the processing

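No paired analysis was possible because each tissue has 1 library. Results were recomputed with a pseudocount of 0.1 or 5 RPKM, and with the filter removed or raised to 10 RPKM. They were also recomputed after scaling each library to 1000000 or by its upper quartile, and after centring the median log2 ratio on 0. Further settings were a threshold of 4-fold, only genes listed in both libraries, and the RPKM ratio without a pseudocount. The 3 members called toward the embryo proper and the 1 toward the suspensor gave the same counts under each, except that at 4-fold the suspensor count was 0. Some settings could not change these counts. A gene under 1 RPKM in both libraries cannot reach 2-fold on this scale, so removing the filter adds no call. The called members are listed in both libraries and exceed 10 RPKM in 1 of them, so the other filters drop none. Over the settings at 2-fold, the share of all genes called toward the embryo proper ran from 15.0% to 25.85%. Toward the suspensor it ran from 17.8% to 32.1%, and the alternative counts are to be read against such shares. All 58 alternative log2 ratios of the members had the sign reported, with ranges of −2.94 to −1.53 for AGO2, −5.17 to −3.003 for AGO5, −4.77 to −3.55 for AGO9 and 1.17 to 1.42 for AGO7. Changing or removing the pseudocount cannot turn the sign of any ratio, so only the scalings and centring could have done so. For AGO3 and AGO8, which are unlisted in 1 library, scaling could not either. Their ranges were 0.149 to 2.69 and −1.345 to −0.0438. Of the 58 values, 19 moved by more than the half-width of the counting interval, among them those of AGO3 and AGO8, which have no such interval. Centring shifts each ratio by the median of 0.13. The order of levels in reads per kilobase of coding length was the same for all 10 genes in each library, which the way reads were recovered brings about. Of 160 list counts, 145 were within 1.5 times of those reported. Removing the filter could not change these either, and a count that stayed at 0 was taken as unchanged. The microRNA processing list had 2 genes higher in the embryo proper, not 1, at a pseudocount of 0.1 RPKM, under both scalings and centring and without a pseudocount. The turnover list had 2 at a pseudocount of 0.1 RPKM, by the upper quartile and without a pseudocount, 3 with centring and 0 at 4-fold. The loading list had 2 higher in the embryo proper with centring, and 0 in each direction at 4-fold. The DNA methylation list had 6 genes higher in the suspensor, not 7, at a pseudocount of 5 RPKM, under both scalings and with centring. At 4-fold the Dicer list had 0 and the DNA methylation list 2 genes higher in the suspensor. At 4-fold the stricter threshold sets these counts; elsewhere the cause was not tested. Counting AGO10, added after seeing the data, turned the direction of the AGO4 clade's share, to 43.7% and 47.1% from 59.7% and 48.9%. Depth limits AGO3 and AGO8, on 14 and 5 reads.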

Other observations

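Of 326 microRNA loci in the reference, 1 was listed in either library, MIR162a (AT5G08185), which encodes the microRNA that targets DCL1. Its level was 15.7 RPKM in the embryo proper library against 58.4 RPKM in the suspensor library, a log2 ratio of 1.83 on the log2(RPKM + 1) scale, beside 13.3 and 15.1 RPKM for DCL1. The locus has no coding length, so its reads were not recovered and no counting interval is given, and its RPKM says nothing of the level of the mature microRNA. Of the 20029 genes listed, 19868 have a coding length, so whether microRNA loci were counted as a class is unknown. Their absence is no measure of their transcription.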
